A study of Homo sapiens with 2 samples.

Results

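The aldo-keto reductases (AKR) and aldehyde dehydrogenases (ALDH) are enzymes that clear aldehydes, and 10 of their genes were followed in HSC-3 cells after treatment with the ferroptosis inducer FIN56. The genes were AKR1A1, AKR1B1, AKR1B10, AKR1C1, AKR1C2, AKR1C3, ALDH1A3, ALDH3A1, ALDH3A2 and ALDH3B1. They were taken by symbol from the 60616 genes of the expression tables, as enzymes that act on lipid aldehydes and that include targets of the transcription factor NRF2. They were selected on family with their FPKM ratios between these same 2 libraries known, so every value below is a description of the members and none is a test.

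HSC-3 is an established human cell line of squamous carcinoma of the tongue, grown here in DMEM with 5% FBS and 1% P/S. Control cells received the vehicle, 0.1% DMSO, and treated cells received 1 µM FIN56 for 48 h, the only time that the labels give. With 1 RNA-seq library per condition, differences could not be checked against replicates and are given without p-values. Expected counts, which are estimates in which a read that matches several genes is divided between them, came to 70184517 for DMSO and 73062209 for FIN56. Because the RNA came from whole cultures, fewer cells of a kind and less RNA per cell cannot be told apart.

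Ferroptosis is a cell death in which the lipids of the membrane are peroxidized, and the broken lipid chains release reactive aldehydes such as hydroxynonenal. Aldo-keto reductases use NADPH to reduce aldehydes and ketones to alcohols, and aldehyde dehydrogenases use NAD or NADP to oxidize aldehydes to acids. NRF2 is released from its inhibitor KEAP1 by electrophiles and oxidants and raises the transcription of detoxifying enzymes, among them several AKR genes.

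A set of 8 squamous epithelial markers checked the label of the line, and all 8 were expressed in both libraries, with KRT5 at an FPKM of 2078 and 1647, KRT14 at 1410 and 1352, and TP63 at 85.6 and 92.6 in DMSO and FIN56 (FPKM is a count of fragments scaled by transcript length and library size). None of the 8 differed by 1.5 times. Of 8 markers of other cells, PTPRC, CD3E and DES were at 0 in both libraries, and PECAM1 and COL3A1 had at most 1 count. The collagen gene COL1A1 was expressed, at an FPKM of 4.25 and 2.19 (ratio 0.515), and VWF was at 0.08 and 0.06. The summed FPKM of the 8 was 61.6 in DMSO and 26.8 in FIN56, nearly all of it from the lysosomal gene CD68 at 57.3 and 24.6, and the part of these genes in the results below was not tested. Mitochondrial genes held 4.77% and 5.75% of the counts.

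The 3 AKR1C genes lie side by side on chromosome 10 and are so alike that their reads can be hard to assign. By GENCODE release 44 on GRCh38, AKR1C1 is at chr10:4963253-4983283 on the plus strand, AKR1C2 at chr10:4987775-5018031 on the minus strand and AKR1C3 at chr10:5035354-5107686 on the plus strand, each with 9 exons in its canonical transcript. Their coding sequences have the same length, 972 bases with the stop codon. AKR1C1 and AKR1C2 differed at 19 of these bases (98.0% identity) and shared an unbroken identical run of 189 bases. AKR1C3 differed from AKR1C1 at 83 bases (91.5% identity) and from AKR1C2 at 87 (91.0% identity). The stretch below, coding bases 103 to 162 in exon 2, is shown because it holds 10 of the differences between AKR1C1 and AKR1C2, and a read across it can be told apart. Capitals mark the 15 positions at which the 3 genes are not all the same, and the stretches are at chr10:4965932-4965991 (plus), chr10:5001604-5001663 (minus) and chr10:5096428-5096487 (plus).
AKR1C1: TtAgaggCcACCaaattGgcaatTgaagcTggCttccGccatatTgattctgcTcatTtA
AKR1C2: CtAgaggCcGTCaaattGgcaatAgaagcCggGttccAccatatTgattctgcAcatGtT
AKR1C3: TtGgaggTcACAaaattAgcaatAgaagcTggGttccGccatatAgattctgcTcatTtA

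Outside such stretches the transcripts overlap in sequence. Of all 75-base windows of the canonical transcript, 36.0% in AKR1C2, 16.8% in AKR1C1, 12.3% in AKR1C3 and 7.31% in AKR1B10 were also found in a transcript of another gene on the same strand. With windows of 100 bases the shares were 27.8%, 12.6%, 7.82% and 1.97%. The other 6 members shared no window of either length on the same strand. These are shares of the canonical transcripts, which have 6543 bases in AKR1C1 and 3215 in AKR1C2. The effective lengths implied by the DMSO counts and FPKM were only 1178 and 1179 bases. AKR1C1 and AKR1C2 had 1066 of the 75-base windows in common. The shares thus need not hold for the transcripts quantified in these libraries, nor rank AKR1C1 below AKR1C2.

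The region before the start of transcription is also nearly the same in AKR1C1 and AKR1C2. Promoters of 300 bases, 250 before the start site and 50 after it, came from RefSeq on GRCh38.p14, where 8 of the 10 members matched with 12 promoters. AKR1C1 and AKR1C2 were identical at 288 of 292 aligned bases (98.6%), and the promoter at the canonical start of AKR1C3 was identical to theirs at 79.9% and 81.0% of aligned bases. They are printed in the direction of the gene, from chr10:4963165-4963464 (plus), chr10:5003808-5004107 (minus) and chr10:5094164-5094463 (plus), with the match to CCAAT in capitals, here on the opposite strand as ATTGG.
AKR1C1: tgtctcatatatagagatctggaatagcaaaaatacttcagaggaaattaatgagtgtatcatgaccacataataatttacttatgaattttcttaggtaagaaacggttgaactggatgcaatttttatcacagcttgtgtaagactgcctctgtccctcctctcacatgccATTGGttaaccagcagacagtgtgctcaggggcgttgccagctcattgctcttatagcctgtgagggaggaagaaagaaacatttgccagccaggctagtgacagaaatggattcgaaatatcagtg
AKR1C2: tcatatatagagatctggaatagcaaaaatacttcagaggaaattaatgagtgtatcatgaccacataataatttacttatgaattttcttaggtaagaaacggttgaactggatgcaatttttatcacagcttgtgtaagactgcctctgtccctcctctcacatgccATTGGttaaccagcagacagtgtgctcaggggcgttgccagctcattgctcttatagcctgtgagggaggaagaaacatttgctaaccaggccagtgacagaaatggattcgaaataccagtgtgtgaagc
AKR1C3: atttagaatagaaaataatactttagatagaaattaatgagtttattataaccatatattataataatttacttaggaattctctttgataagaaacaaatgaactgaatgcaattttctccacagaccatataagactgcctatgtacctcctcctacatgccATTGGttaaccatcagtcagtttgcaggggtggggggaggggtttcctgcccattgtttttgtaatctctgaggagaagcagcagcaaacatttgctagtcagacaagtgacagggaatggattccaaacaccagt

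The CCAAT match began at -77 from the start site in AKR1C1, at -81 in AKR1C2 and at -86 in AKR1C3, and the second promoter of AKR1C3 in the table also held one, at -73. Searched on both strands, CCAAT was found in 34.6% of all 35116 promoters of this length. The letters TGACNNNGC, the core of the element that NRF2 binds, were found in 13.4% of all promoters and in 0 of the 12 promoters of the members. That says only that these letters are not in these windows.

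The 10 genes spanned a wide range of levels in both libraries. In the DMSO library ALDH3A2 was the highest at an FPKM of 118.4, followed by AKR1A1 at 82.1, AKR1C1 at 73.4, AKR1C3 at 72.5, AKR1B1 at 64.1, ALDH1A3 at 47.2 and AKR1C2 at 34.6. ALDH3B1 at 4.17 and AKR1B10 at 2.41 were far below them, and ALDH3A1 was barely detected at 0.07. The counting intervals of neighbours in this order overlapped only for AKR1C1 (71.6 to 75.3) and AKR1C3 (70.6 to 74.4).

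In the FIN56 library ALDH3A2 stayed first, at an FPKM of 103.5, and the genes below it came in another order. AKR1B1 stood second at 70.7 and AKR1C3 next at 59.7, ahead of AKR1A1 at 46.8, AKR1C1 at 38.7, ALDH1A3 at 26.2 and AKR1C2 at 16.5. ALDH3B1 at 3.24, AKR1B10 at 1.63 and ALDH3A1 at 0.12 were again the lowest, and no neighbouring intervals overlapped. The 10 genes together held 746.2 TPM, a length-scaled level that adds up to the same total in each library, in DMSO and 561.1 in FIN56.

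**Figure D1:**
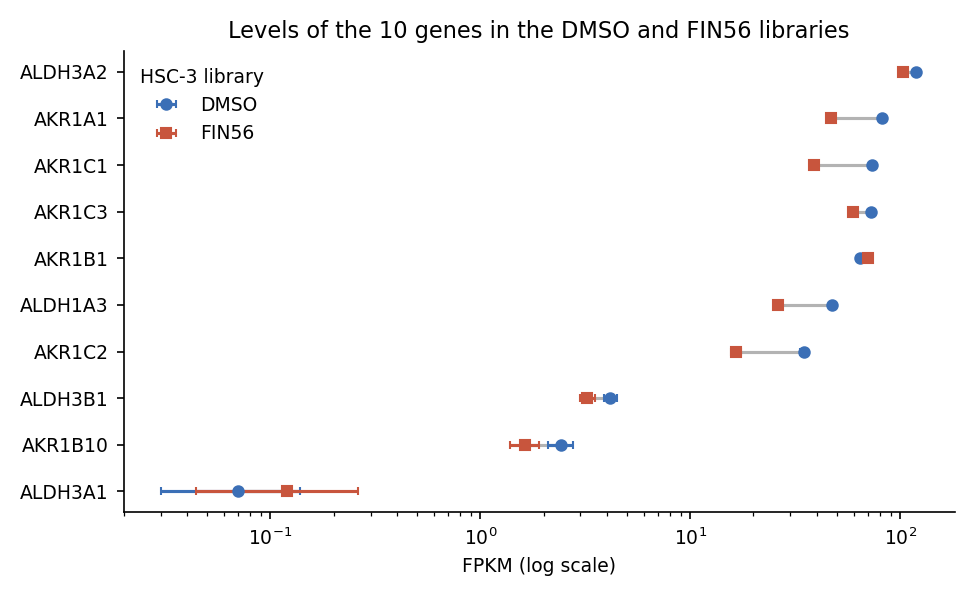
FPKM on a log scale for the 10 genes in DMSO (blue circles) and FIN56 (red squares), with bars for the 95% interval of counting error and a grey line joining the 2 libraries. AKR1A1, AKR1C1, ALDH1A3 and AKR1C2 have the widest gaps among the well expressed genes, and the bars of ALDH3A1 overlap.

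The ratio of the FPKM values, FIN56 over DMSO, was below 1 for 8 of the 10 genes and above 1 for AKR1B1 and ALDH3A1. At a ratio of 1/1.5 or less were 4 genes, AKR1C2, AKR1C1, ALDH1A3 and AKR1A1, and at 1.5 or more was 1, ALDH3A1, which rested on 14 counts in all. Over all 24454 genes detected in both, by an FPKM above 0, 46.2% were below 1, 17.3% at 1/1.5 or less and 14.7% at 1.5 or more. When both libraries had to reach an FPKM of 1, 4 of 9 members were at 1/1.5 or less and 0 at 1.5 or more, against 6.77% and 3.87% of 12638 genes. The members gave the same numbers when both libraries had to reach 10 counts, against 11.1% and 7.62% of 17372 genes. The median ratio of the 10 members was 0.725, against 1.00 over all genes, and since the members were chosen with these values known nothing is read from the difference. The deposited rlog values, which are drawn towards the mean of the libraries, put 0 of the 10 genes past 1.5 times in either direction.

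**Figure D2:**
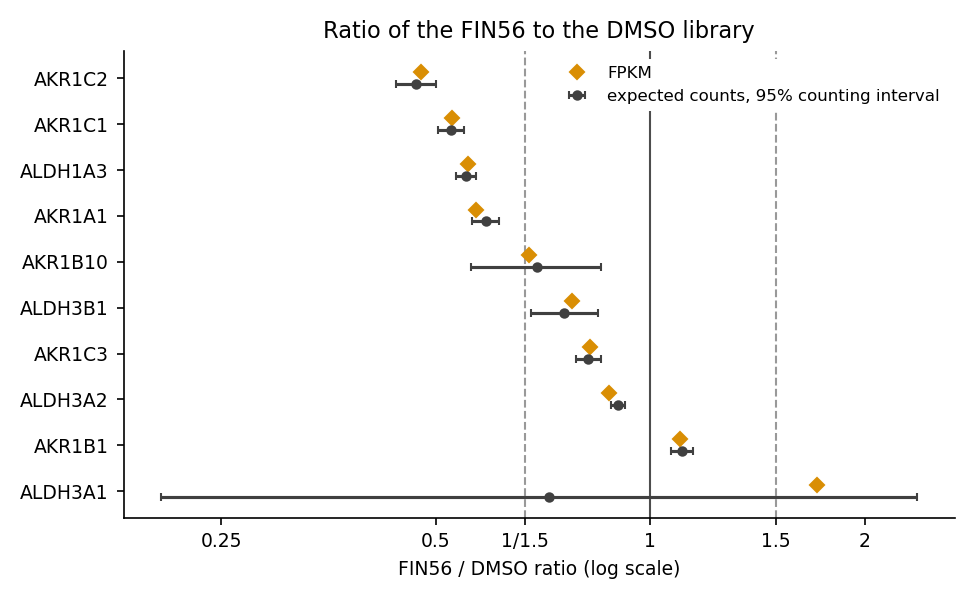
Ratio of the FIN56 to the DMSO library on a log scale, from FPKM (orange diamonds) and from expected counts scaled by library totals (black circles, with bars for the 95% counting interval), with dashed lines at 1/1.5 and 1.5. The intervals of 8 genes lie below 1, that of AKR1B1 lies above 1, and that of ALDH3A1, whose 2 measures point in opposite directions, spans 0.206 to 2.37.

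AKR1A1, the aldehyde reductase that acts on many small aldehydes, lies at chr1:45550543-45570049 on the plus strand. It had a DMSO FPKM of 82.1 and a FIN56 FPKM of 46.8, a ratio of 0.570. The counts behind it were whole numbers, 5282 and 3232, and their ratio scaled by library totals was 0.588 with a 95% exact interval of 0.562 to 0.614. This interval, like all those that follow, covers counting error only and compares the 2 libraries, not the conditions. Among the 12638 genes that reached an FPKM of 1 in each library, the FPKM ratio of AKR1A1 stood at percentile 2.83.

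AKR1B1, or aldose reductase, turns glucose into sorbitol as the first step of the polyol pathway and also reduces lipid aldehydes. It lies at chr7:134442356-134459284 on the minus strand. It was the only well expressed member that was higher in FIN56, with a DMSO FPKM of 64.1 and a FIN56 FPKM of 70.7, a ratio of 1.10. The count ratio was 1.11 (1.07 to 1.15), from 5423 and 6255 counts, again whole numbers. Set against AKR1B1, AKR1A1 was lower in FIN56, with a ratio of count ratios of 0.531 (0.501 to 0.562).

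AKR1B10, a retinal and aldehyde reductase that is a known NRF2 target, is the neighbour of AKR1B1 at chr7:134527567-134541412 on the plus strand. Its FPKM was 2.41 in DMSO and 1.63 in FIN56, a ratio of 0.676, which is just short of 1/1.5. The expected counts were 218.78 and 157.94, with a count ratio of 0.693 (0.561 to 0.854). These counts were not whole, and the remainder lay in the paralog AKR1B15, with 27.22 and 7.06 counts. The sums of AKR1B10 and AKR1B15 were the whole numbers 246 and 165, with a ratio of 0.644 (0.526 to 0.788). The pair together was thus lower however its reads were divided. The sum cannot show the direction of AKR1B10 alone, since AKR1B15 was also lower. The summed FPKM of AKR1B1, AKR1B10 and AKR1B15 was 66.8 in DMSO and 72.4 in FIN56, of which AKR1B1 held 96.0% and 97.6%.

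AKR1C1, which inactivates progesterone, was at a DMSO FPKM of 73.4 and a FIN56 FPKM of 38.7, a ratio of 0.527. The expected counts were 6069.26 and 3318.65, and their ratio was 0.525 (0.503 to 0.548).

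AKR1C2, which inactivates dihydrotestosterone, had the lowest ratio of the 10 genes. Its FPKM was 34.6 in DMSO and 16.5 in FIN56, a ratio of 0.477, at percentile 1.04 of the 12638 genes. The count ratio was 0.469 (0.44 to 0.50), from expected counts of 2865.85 and 1399.78. Relative to AKR1C1, AKR1C2 was lower, with a ratio of count ratios of 0.893 (0.827 to 0.965), a difference that depends on the division of reads between 2 genes that share the sequence shown above.

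AKR1C3, which forms testosterone and prostaglandin F, stood apart from its neighbours with a DMSO FPKM of 72.5 and a FIN56 FPKM of 59.7, a ratio of 0.823. The count ratio was 0.819 (0.788 to 0.852), from 5503.88 and 4693.56 counts. Relative to AKR1C3, the ratio of count ratios was 0.641 (0.605 to 0.679) for AKR1C1 and 0.573 (0.531 to 0.618) for AKR1C2.

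None of the 3 AKR1C counts was whole, but with AKR1C4, which had 1.01 counts in each library, they summed to 14440 and 9413. The fractions thus cancelled within the cluster, and the ratio of the sums was 0.626 (0.610 to 0.643). In FPKM the 3 genes summed to 180.6 in DMSO and 114.9 in FIN56. AKR1C1 made up 40.7% of that sum in DMSO and 33.7% in FIN56, AKR1C2 19.2% and 14.4%, and AKR1C3 40.2% and 51.9%. AKR1C1 and AKR1C3 were thus level in DMSO, and AKR1C3 was the largest part in FIN56. The summed FPKM of AKR1C1 and AKR1C2 alone had a ratio of 0.511.

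**Figure D3:**
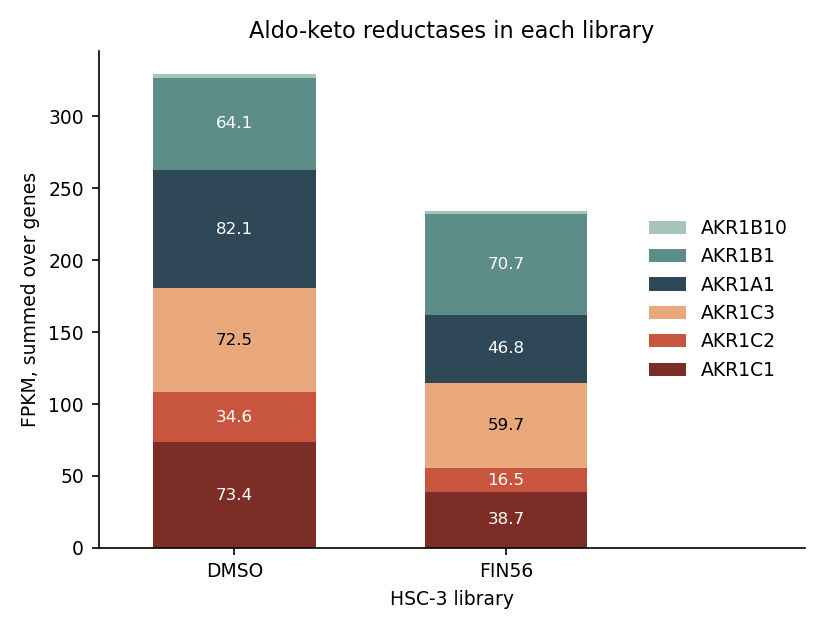
Stacked FPKM of the 6 aldo-keto reductases in the DMSO and FIN56 libraries, with values written on all parts over 10. The total was 329.2 in DMSO and 234.1 in FIN56, with the part of AKR1B1 larger in FIN56 and the parts of all the others smaller.

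Of the aldehyde dehydrogenases, ALDH1A3 had the lowest ratio. The enzyme oxidizes retinal to retinoic acid, and its gene lies at chr15:100877714-100916626 on the plus strand with 13 exons. Its FPKM was 47.2 in DMSO and 26.2 in FIN56, a ratio of 0.555, and its count ratio was 0.551 (0.533 to 0.569) from 9951.88 and 5708.47 counts. These counts were not whole although no same-strand window was shared at 75 bases. The fractions cancelled with the long non-coding gene AC015712.2, named ALDH1A3-AS1 in GENCODE release 44, which overlaps ALDH1A3 on the opposite strand over 24284 bases and shares 40.2% of its 75-base windows in reverse. AC015712.2 had 574.12 and 471.53 counts, and the sums of both genes were 10526 and 6180, with a ratio of 0.564 (0.546 to 0.582). By the labels of these libraries the kit keeps the strand, and the strand setting of the counting is not given in the sources used here.

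ALDH3A2, the fatty aldehyde dehydrogenase that oxidizes long-chain aldehydes, was the highest member in both libraries. It lies at chr17:19648136-19685760 on the plus strand. Its FPKM was 118.4 in DMSO and 103.5 in FIN56, a ratio of 0.874, and its whole counts of 15946 and 14978 gave a ratio of 0.902 (0.882 to 0.923). Relative to ALDH3A2, ALDH1A3 was lower in FIN56, with a ratio of count ratios of 0.611 (0.587 to 0.635). ALDH3A2 made up 69.7% of the summed FPKM of the 4 ALDH genes in DMSO and 77.8% in FIN56, whereas ALDH1A3 made up 27.8% and 19.7%.

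ALDH3A1, known as an abundant enzyme of the cornea and a marker of aldehyde resistance in tumors, was barely detected, with 8 counts in DMSO and 6 in FIN56. It lies on the same chromosome as ALDH3A2, at chr17:19737984-19748943 on the minus strand. Its FPKM was 0.07 in DMSO and 0.12 in FIN56, a ratio of 1.71, but the count ratio was 0.720 (0.206 to 2.37). The effective length implied by the counts and FPKM was 1628 bases in DMSO and 684 in FIN56, a ratio of 0.420. Both lengths are approximate because FPKM has 2 decimals. The FPKM and count ratios differ by this change in length, whose cause was not tested. The direction of ALDH3A1 thus turned with the measure, and no difference was detectable at this depth. For the other 9 genes the implied length differed by less than 5%.

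ALDH3B1, which oxidizes aldehydes of medium and long chains, lies at chr11:68008578-68029282 on the plus strand. Its FPKM was 4.17 in DMSO and 3.24 in FIN56, a ratio of 0.777, and its whole counts of 765 and 603 gave a ratio of 0.757 (0.679 to 0.844). Its paralog ALDH3B2 had 3 counts in each library.

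**Figure D4:**
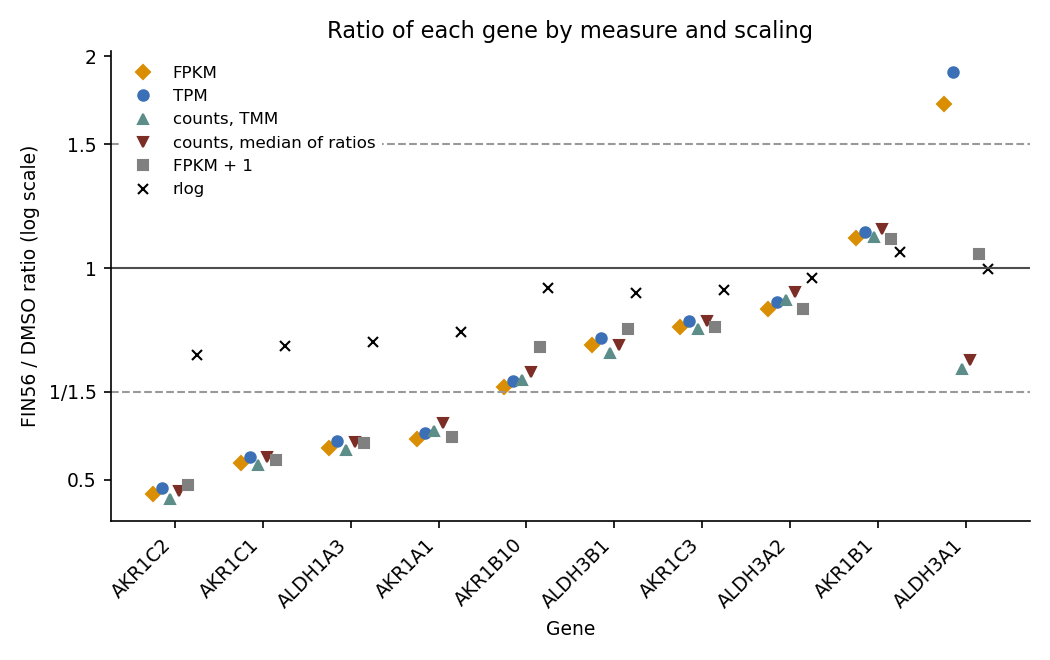
FIN56 to DMSO ratio of each gene on a log scale by 6 measures, which are FPKM, TPM, counts with TMM or median-of-ratios scaling, FPKM with 1 added, and rlog, with dashed lines at 1/1.5 and 1.5. Every measure keeps the direction of the 9 genes other than ALDH3A1, and of the 6 the rlog ratio lies nearest to 1 for each gene, from 0.752 to 1.06.

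The rest of both enzyme families was read from the gene lists, which were also drawn up with earlier results of these libraries known. Of 15 other aldehyde dehydrogenases 7 were at 1/1.5 or less and 0 at 1.5 or more, with a median FPKM ratio of 0.695. On the log2 scale this median was -0.52, and it was -0.067 when 1 was added to each FPKM and -0.01 with rlog. Over all 24454 genes detected in both libraries, 17.3% were at 1/1.5 or less and 14.7% at 1.5 or more. The counts of the lists below stand against the same shares. For the counts limited to genes with at least 100 counts, no share over all genes was computed. With at least 10 counts in both libraries, the shares over all genes were 11.1% and 7.62%. Nothing is read from any of these counts. Of the 7 lower dehydrogenases, ALDH1A1, ALDH1L1 and ALDH5A1 rested on 7, 6 and 34 counts in all. Among the 9 of the list with at least 100 counts over both libraries, 4 were at 1/1.5 or less. ALDH16A1, a member of the family without known enzyme activity in humans, had the lowest ratio, with a DMSO FPKM of 11.2 and a FIN56 FPKM of 4.33 (ratio 0.388), and ALDH4A1, of proline breakdown, was at 5.77 and 3.58 (0.620). At the other end were ALDH9A1, at 33.1 and 38.5 (1.16), and ALDH1B1, a mitochondrial enzyme, at 9.85 and 11.0 (1.12).

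Of 11 other aldo-keto reductases 9 could be compared, with 2 at 1/1.5 or less, 0 at 1.5 or more and a median ratio of 0.889. All 5 with at least 100 counts were below 1, but the count intervals of only 3 of them lay wholly below 1. Over all genes detected in both libraries, 46.2% were below 1. The potassium channel subunit KCNAB3 was the lowest, with 109 counts in DMSO and 18 in FIN56 (FPKM ratio 0.178). AKR7A2, which reduces succinic semialdehyde, was at an FPKM of 39.4 and 29.5 (0.748). KCNAB1 was at 0.27 and 0.24 (0.889). KCNAB2 was at 13.8 and 13.1 (0.947), although its count ratio was 0.685. AKR1D1 was listed at 0 in both libraries, and AKR1C8 was listed only under the pseudogene symbol AKR1C8P, with 4 and 3 counts.

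Other enzymes that clear carbonyls and aldehydes went both ways. Of 14 compared, 3 were at 1/1.5 or less and 1 at 1.5 or more, with a median ratio of 0.956. The 1 at 1.5 or more was GSTM3, with 5 counts in DMSO and 11 in FIN56. Among the 12 with at least 100 counts, 2 were at 1/1.5 or less and 0 at 1.5 or more. DHRS4, a carbonyl reductase, was at an FPKM of 9.85 and 4.71 (0.478) and DCXR, the xylulose reductase, at 35.7 and 19.0 (0.532). PTGR1, which reduces hydroxynonenal and other alkenals, was at 71.1 and 101.7 (1.43), and the carbonyl reductase CBR3 at 11.3 and 14.9 (1.32). ADH7 and GSTA1 were listed at 0 in both libraries and MGST1 in DMSO.

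The NRF2 regulators and the other NRF2 targets lay on both sides of 1. Of 21 genes 10 were below 1 and 11 above, with a median ratio of 1.01, and 1 was at 1/1.5 or less. That gene was PGD, of the pentose phosphate pathway, at a DMSO FPKM of 136.2 and a FIN56 FPKM of 89.4 (0.657), followed by TALDO1 at 229.4 and 169.7 (0.740). The highest ratios were those of the ferritin light chain FTL, at 1473 and 2012 (1.37), and the heme oxygenase HMOX1, at 1.37 and 1.87 (1.36), whose count ratio was 1.54 (1.22 to 1.96).

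Genes of retinoid synthesis and response, around ALDH1A3, had a median ratio of 0.714 over 15 genes, with 4 at 1/1.5 or less and 1 at 1.5 or more. Among the 9 with at least 100 counts, 1 was at 1/1.5 or less and 0 at 1.5 or more. CRABP2, which carries retinoic acid to the nucleus, was at a DMSO FPKM of 45.5 and a FIN56 FPKM of 17.4 (0.382), and the receptor RARG at 18.6 and 12.5 (0.674). The receptors RARA, at 9.48 and 12.6 (1.33), and RXRA, at 21.7 and 22.7 (1.05), were higher. CYP26A1, which breaks down retinoic acid, was listed at 0 in both libraries. Its paralog CYP26B1 was expressed, at a DMSO FPKM of 3.24 and a FIN56 FPKM of 2.36 (0.728).

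The list of fatty aldehyde sources, drawn up around ALDH3A2, also holds genes whose enzymes do not release an aldehyde, such as the kinase SPHK2. Its median ratio was 1.12 over 8 genes, with 1 at 1/1.5 or less and 1 at 1.5 or more, and it does not measure aldehyde supply. FAR2, a fatty acyl-CoA reductase, was at 7.44 and 12.1 (1.63), but its count ratio was 1.29. FAAH was at 1.42 and 1.88 (1.32), with a count ratio of 1.03. HACL1, a lyase of the peroxisome that releases aldehydes from branched fatty acids, was at 9.32 and 6.04 (0.648), and the sphingosine kinase SPHK2 at 4.09 and 3.89 (0.951). AGMO had 1 count in all, in FIN56.

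Around AKR1B1 in the polyol pathway, SORD, which turns sorbitol into fructose, was at an FPKM of 9.91 and 8.74 (0.882), and the glucose transporter SLC2A1 was at 126.4 and 142.0 (1.12). KHK was at 0.78 and 0.36 (0.462), with a count ratio of 0.813 (0.557 to 1.18).

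**Figure D5:**
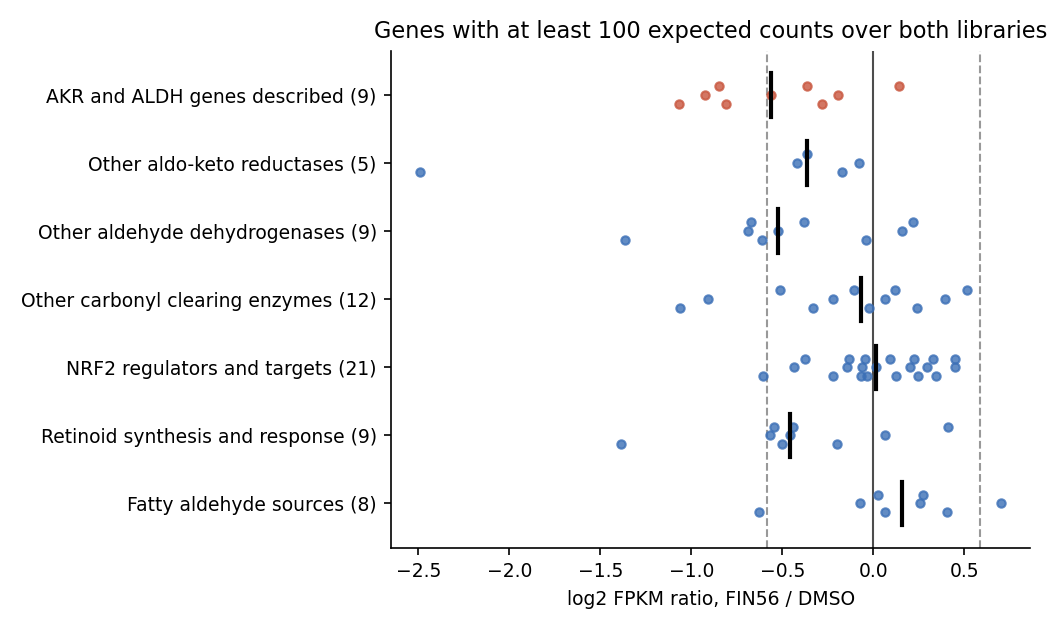
Log2 FPKM ratio, FIN56 over DMSO, of each gene with at least 100 expected counts over both libraries, by list (number of genes in brackets), with black bars at list medians and dashed lines at 1.5 times in either direction. The 9 members shown (red) have a median of -0.56, the other aldehyde dehydrogenases one of -0.52 and the NRF2 list one of 0.02.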

How the data were processed

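RNA-seq of HSC-3 cells was analysed from 4 deposited tables, with 1 DMSO and 1 FIN56 library. By the methods, which are written for tumor samples and are taken here to hold for these libraries, and by the submitters' processing notes, the authors aligned reads to GRCh38 with STAR 2.6.1a and the annotation of Ensembl release 94 and quantified genes with RSEM 1.3.1. The authors deposited expected counts without normalization. Their deposited FPKM is scaled by library size and effective length, with 2 decimals kept. The deposited TPM column has the same sum in either library. As rlog the authors gave log2 values from DESeq2 1.26.0. No test was made, since each condition had 1 library and no spread between replicates could be measured.

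The members and gene lists were chosen with earlier results of these data known. The measure was the FPKM ratio, FIN56 over DMSO, with thresholds of 1.5 and 1/1.5. Counting error was given by exact Clopper-Pearson intervals (95%) on expected counts rounded to whole numbers, scaled by library totals. For a ratio between genes the exact conditional interval was used, over 7 pairs. No molecular identifiers were used, so reads are not independent molecules and intervals cover counting error only. An expected count was called whole within 0.005. Sums of genes that share reads were chosen after values were seen. All members are named, and of each other list the 2 genes at each end of the FPKM ratio with 100 counts or more, those listed at 0 and paralogs of members. Further genes, such as GSTM3 and CYP26B1, are named where a count or a paralog called for it. Positions and transcripts came from GENCODE release 44, in which 99.7% of identifiers were found. Alternatives were TPM, rlog, counts scaled by edgeR 4.0.16 TMM factors, DESeq2 1.42.0 size factors or totals, pseudocounts of 0.1 and 1 FPKM, minimum values of 1 FPKM or 10 counts, and folds of 1.25 and 2. The values of some single genes, and the summary of the polyol list, are not reported here. The steps were tested on simulated data. Python 3.11.15 and R 4.3.3 were used.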

Additional observations from a re-analysis of the deposited data

Results flagged for a closer look

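The AKR and ALDH pseudogenes lie outside the comparisons above. Of 21 in the tables, 11 had 0 counts in both libraries and 3 had at least 10 counts in either. AKR7A2P1 was flagged because a signal above that of the DMSO library appeared in a gene no comparison used. It had 16 counts in DMSO and 43 in FIN56, an FPKM of 0.28 and 0.72, which is a ratio of 2.57, and its count ratio was 2.58 (95% counting interval 1.42 to 4.91). Its parent gene AKR7A2 was lower in FIN56, at an FPKM ratio of 0.748. The other pseudogenes with at least 10 counts were AKR1C7P, with 31 and 29, and ALDH7A1P1, with 19.3 and 14.9. None of these differences was tested.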

How the results depend on the processing

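The direction of the 9 members other than ALDH3A1 was kept under every measure, scaling, pseudocount and filter run. ALDH3A1, on 14 counts, turned from 1.71 to 0.719 with TMM, 0.739 with median-of-ratios factors, 0.720 with library totals and 0.996 with rlog. The number of members at 1.5 or more was then 0 in place of 1, as it was with either pseudocount, either filter, a fold of 2 and without ALDH3A1, an alternative added after seeing the data. The number at 1/1.5 or less, 4, was 0 with rlog and 1 with a fold of 2. With rlog the median log2 ratio of the members moved from -0.46 to -0.11, that of fatty aldehyde sources from 0.16 to 0.042 and that of retinoid genes from -0.49 to -0.024. The median of the other aldehyde dehydrogenases, -0.52, was -0.01 with rlog and -0.067 with 1 FPKM added. The sum of ALDH3A1 and ALDH3A2, 0.875 in FPKM, was 0.901 with TMM, 0.925 with median-of-ratios factors and 0.902 with totals. Of the counts of other lists under the alternatives, 34 moved from the reported count and 74 did not. A count was said to move if it differed by more than 1.5 times or changed to or from 0, even by a single gene. The cause of these shifts was not tested. No paired analysis was possible because there was 1 library per condition. Counting depth limits ALDH3A1, AKR1B10 and ALDH3B1 most, and the spread between cultures is unknown for all genes.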
